A study of Homo sapiens with 4 samples.

Results

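A set of 9 genes tied to the tumour suppressor p53 was followed across the nuclei of enteric ganglioids. They are the miR-34a host gene MIR34AHG, its divergent neighbour LNCTAM34A, and the p53 target genes CDKN1A, MDM2, BAX, FAS, SESN1, ZMAT3 and GDF15, which makes 9 of the 36601 features counted. They were chosen from measured values, because MIR34AHG and LNCTAM34A were lower in progenitors of PP121-treated ganglioids, so the progenitor contrast between treatments is described here and not tested. Enteric ganglioids are free-floating aggregates of enteric neurons and their precursors, grown here from H9, an established human embryonic stem cell line. Both groups used this line, and the labels name no edited allele. In the control group, 2 samples received no PP121, and in the PP121 group, 2 samples received PP121, which blocks a range of receptor tyrosine kinases, at 2 µM between days 15 and 20. In the annotation, replicate 1 of each group is from day 42 and replicate 2 from day 38. Each day thus held 1 control and 1 PP121 sample, and the labels give each as a differentiation replicate. All values come from 1 cell line.

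p53 is a transcription factor that accumulates after DNA damage and other stresses and switches on genes of cell cycle arrest, DNA repair and apoptosis. Among its targets are its own inhibitor MDM2, a ubiquitin ligase that marks p53 for degradation, and the host transcript of miR-34a, a microRNA that represses cell cycle and survival genes. In the developing nervous system, p53 is known for removing damaged progenitors, and several of its targets are read at a low level in unstressed cells.

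miR-34a itself is too short to be captured by this assay, which reads polyadenylated transcripts of nuclei, so its host gene stands for the locus. In the RefSeq annotation of GRCh38.p14, MIR34AHG is a long non-coding RNA gene on the minus strand at chr1:9148011-9182338, and the miR-34a hairpin lies within it at chr1:9151668-9151777. The mature sequences are shown because the seed, bases 2 to 8 from the 5′ end and printed in capitals, decides which transcripts the microRNA pairs with. Of the 2545 mature sequences searched, 3 carry the miR-34a-5p seed, and the other 2 of these are encoded on chromosome 5. The searched set may not hold every human microRNA, so others with this seed may be missing.
hsa-miR-34a-5p: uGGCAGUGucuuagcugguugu
hsa-miR-449a: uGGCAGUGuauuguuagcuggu
hsa-miR-449b-5p: aGGCAGUGuauuguuagcuggc
hsa-miR-34a-3p: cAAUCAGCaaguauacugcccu

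LNCTAM34A, a long non-coding RNA gene at chr1:9182204-9192086, runs in the opposite direction from MIR34AHG, and the start of each gene overlaps the other by 135 bases. The window of 300 bases around its start, chr1:9181954-9182253 on the plus strand, is shown because it holds a full p53 consensus site and both long non-coding transcripts begin beside it. The site, in capitals, is made of 2 adjacent consensus half-sites at chr1:9182144-9182163. It lies 60 to 41 bases before the start of LNCTAM34A and 175 bases inside MIR34AHG.
LNCTAM34A start window: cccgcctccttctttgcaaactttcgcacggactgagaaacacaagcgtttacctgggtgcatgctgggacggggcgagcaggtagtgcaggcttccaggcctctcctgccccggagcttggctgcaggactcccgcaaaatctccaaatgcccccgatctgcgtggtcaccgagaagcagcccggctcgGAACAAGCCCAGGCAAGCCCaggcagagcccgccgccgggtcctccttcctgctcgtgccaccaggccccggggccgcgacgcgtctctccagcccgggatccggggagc
A full site, defined as 2 p53 consensus half-sites 0 to 13 bases apart, was found in 10 of 35116 such windows of annotated genes (0.0285%). The windows searched do not cover every annotated start. CDKN1A, for example, begins at chr6:36676463, and its 1 window is chr6:36678464-36678763. A single half-site was found in 6.63% of windows. Counted per gene over the start windows searched, 0.0366% of genes had a full site and 8.06% a half-site. Of the 9 genes, 1 had a full site in a start window (LNCTAM34A) and 3 had a half-site (LNCTAM34A, SESN1 and FAS). Sites outside these windows were not searched. The match is a description of the letters, and binding was not measured. Whether reads were assigned by strand is not given in the sources used here, so reads from the overlap of MIR34AHG and LNCTAM34A cannot be told apart.

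The series held 25306 deposited nuclei, of which 14812 carried a class in the deposited annotation (2912 to 4587 per sample). Annotated nuclei had a median of 6289 to 7071 unique molecular identifiers (UMIs, 1 per captured transcript), with 23348045 to 34123759 UMIs per sample, and any 2 samples shared 0 to 8 nuclear barcodes. Enteric neurons numbered 976 to 2301 per sample, and progenitors, the sum of the classes progenitor 1 and progenitor 2, numbered 1291 to 2304. The summed level of 8 neuronal markers was 1547 to 2043 CPM (UMIs scaled to a common total of the class) in neurons and 608 to 774 CPM in progenitors. The summed level of 8 markers of neural crest, enteric progenitors or glia was 38.5 to 45.0 CPM in neurons and 85.0 to 103 CPM in progenitors, and none of either list was at 0 in these classes. The control and PP121 annotations may place the boundary between neurons and progenitors differently, which was not tested apart from a shift in expression. When each nucleus was given the class of its 15 nearest nuclei of the other treatment, 15.9% and 20.2% of the neurons of control replicates 1 and 2 fell among progenitors, against 3.05% and 4.10% of the neurons of the PP121 replicates. In the other direction, 31.8% and 21.8% of the progenitor 1 nuclei of the PP121 replicates fell among neurons, against 2.73% and 0.822% of those of the controls. When all annotated nuclei were clustered together, 3.82% and 5.76% of control neurons fell in progenitor clusters, against 2.81% and 6.35% of PP121 neurons. Comparisons between treatments or days are given also for the nuclei that kept their class in the nearest-neighbour assignment. These are called nuclei under both annotations. The annotation also left out 372 and 196 control nuclei that met the stated limits, and none of PP121.

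In each sample, 8 of the 9 genes were at a higher level in progenitors than in neurons, and 7 were higher in progenitor 1 than in progenitor 2. Because classes are clusters of these same nuclei, class levels are a description with no test. MIR34AHG was at 106 CPM in progenitors of control replicate 1, 85.6 in control replicate 2, 84.5 in PP121 replicate 1 and 26.8 in PP121 replicate 2. In neurons of the same samples it was at 23.3, 29.2, 18.9 and 8.34 CPM. Progenitors were thus higher in each sample, by 2.93- to 4.54-fold. MDM2, the p53 inhibitor, was 2.06- to 3.28-fold higher in progenitors. SESN1, a stress-induced regulator of growth signalling, was at nearly the same level in both, with a ratio of 0.961 to 1.27, and BAX, a pore-forming apoptosis factor, had a ratio of 1.31 to 1.59. These 2 genes varied least between classes.

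Within the progenitors, progenitor 1 exceeded progenitor 2 in each sample for 7 of the 9 genes. The ratio was 2.52 to 2.97 for MDM2, 1.84 to 2.31 for MIR34AHG and 1.94 to 2.85 for ZMAT3, an RNA-binding protein and p53 target. It was 1.85 to 2.88 for CDKN1A, which encodes the cell cycle inhibitor p21, and 3.21 to 4.74 for GDF15, a secreted stress factor. FAS, a death receptor, had a ratio of 2.13 to 3.25, and SESN1 one of 1.52 to 1.90. BAX had no single direction, with ratios of 0.709 to 1.31. LNCTAM34A went the other way in 3 samples, with ratios of 0.319 to 1.24. The neighbours MIR34AHG and LNCTAM34A were therefore ordered differently by class: MIR34AHG was highest in progenitor 1 (155, 127, 115 and 41.4 CPM in the order above), and LNCTAM34A there had 16.2, 4.77, 6.55 and 0.985 CPM. In progenitor 2, LNCTAM34A had 13.1, 7.96, 9.21 and 3.09 CPM. The ranges of LNCTAM34A in the 2 classes overlapped.

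**Figure D1:**
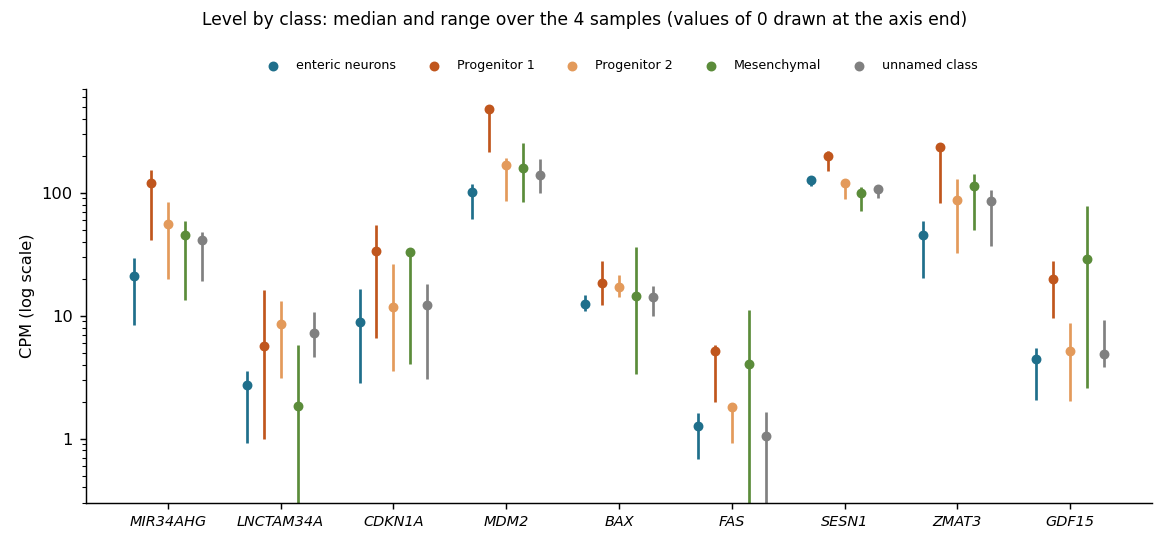
Level of each of the 9 genes in 5 classes of nuclei, as CPM on a log axis. Points are medians over the 4 samples and lines run from the lowest to the highest sample. MDM2 reached 488 CPM in progenitor 1, and LNCTAM34A is a gene whose levels in progenitor 1 and progenitor 2 overlap.

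Outside the neural classes, the mesenchymal nuclei, which numbered 33 and 40 on day 42 and 408 and 422 on day 38, also held these transcripts. On day 38, where nuclei were many, MDM2 was at 255.9 CPM in the control sample and 83.5 CPM in the PP121 sample, and CDKN1A was at 32.3 and 4.03 CPM. GDF15 was at 21.0 and 2.59 CPM there. The PP121 sample of day 38 was thus the lower one in mesenchymal nuclei as well, with 1 sample on each side.

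In neurons, the transcripts of all 9 genes were lower in the PP121 sample than in the control sample of the same day, on both days. This addresses whether the lower levels that chose the genes in progenitors were also present in other nuclei of the same 4 samples. Since these samples also chose the genes, the neuron tests below are not independent of that choice. Among all 21243 genes tested in neurons, 38.7% were lower on both days, and 55% and 53.6% were lower on day 42 and on day 38. Both PP121 samples were below both control samples for 8 of the 9 genes (all but BAX), against 25.4% of all genes.

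The deposited phase calls were not equally spread in these neurons. The call gives each nucleus a phase, so an S or G2M call does not show that a neuron was cycling. The summed level of 8 cycling markers was 69.3 to 122 CPM in neurons and 272 to 477 CPM in progenitors. By the deposited call, 53.2% and 51.2% of control neurons were in G1, against 64.7% and 62.5% of PP121 neurons, and 35.3% and 37.4% were in S, against 25.6% and 22.9%. Within each phase, CDKN1A and ZMAT3 were lower in PP121 on both days, with PP121 to control ratios of 0.0574 to 0.662 and of 0.316 to 0.70. The lowest CDKN1A ratio, in G2M on day 38, rests on 1 UMI in PP121 2 and 17 UMIs in control 2. Other genes were not lower throughout. On day 42 the ratio was above 1 in S for MIR34AHG (1.14), LNCTAM34A (1.04), SESN1 (1.02) and GDF15 (1.02), in G1 for GDF15 (1.04) and in G2M for MDM2 (1.04). On day 38 it was above 1 for FAS in G1 (1.03) and BAX in G2M (1.17). Of the 46 GDF15 UMIs in G1 of PP121 1, 18 came from 1 nucleus. The FAS ratio rests on 3 UMIs in each sample, and the BAX ratio on 12 UMIs in PP121 2 and 10 in control 2. The part of the phase make-up in the sums over neurons was not tested.

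Starting with the miR-34a locus, MIR34AHG was at 26.3 ± 4.17 CPM in control neurons and 13.6 CPM on average in PP121 neurons (mean ± SD, n = 2 samples each), from 442, 324, 318 and 73 UMIs in control 1, control 2, PP121 1 and PP121 2. LNCTAM34A was at 3.11, 3.52, 2.32 and 0.914 CPM in the same order, from 59, 39, 39 and 8 UMIs. For both transcripts the sample PP121 2 stood far below the other 3, which lay close together. On the log2 scale MIR34AHG differed by -0.30 on day 42 and by -1.81 on day 38, and LNCTAM34A by -0.43 and -1.95. MIR34AHG UMIs came from 257, 169, 192 and 37 neurons in that order, with 1.72, 1.92, 1.66 and 1.97 of them per such nucleus. PP121 2 thus had the fewest neurons with a UMI and the highest count per such nucleus. After thinning each nucleus to 2000 UMIs, 3.97%, 4.49%, 3.66% and 1.34% of neurons held one (11.2%, 13.5%, 9.46% and 3.79% before thinning), and the level of free RNA in the droplets was not measured.

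Of the genes of cell cycle arrest, CDKN1A was at 16.4 CPM in control 1, 9.65 in control 2, 8.26 in PP121 1 and 2.86 in PP121 2. It was the gene with the largest within-day difference on day 42, at -0.99, and it differed by -1.76 on day 38 (log2). ZMAT3 was at 59.5, 51.6, 38.8 and 20.2 CPM, and both PP121 samples were below both controls, by -0.62 on day 42 and -1.35 on day 38. MDM2, on the inhibitory arm, was at 109, 118, 93.6 and 61.7 CPM, and 84 of its 1310 UMIs in control 2 came from 1 nucleus. Its groups did not overlap either, but the differences were smaller, at -0.22 and -0.94.

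Of the apoptosis genes, BAX was at 14.6, 12.1, 12.6 and 11.0 CPM, so its groups overlapped. FAS was at 1.53, 1.62, 1.01 and 0.685 CPM, from 29, 18, 17 and 6 UMIs, too few to place a single sample closely. GDF15, the secreted factor, was at 4.59, 5.50, 4.28 and 2.06 CPM, and SESN1 at 129, 129.6, 126 and 113 CPM. SESN1 differed least on day 42, by -0.03 on the log2 scale, and by -0.19 on day 38.

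**Figure D2:**
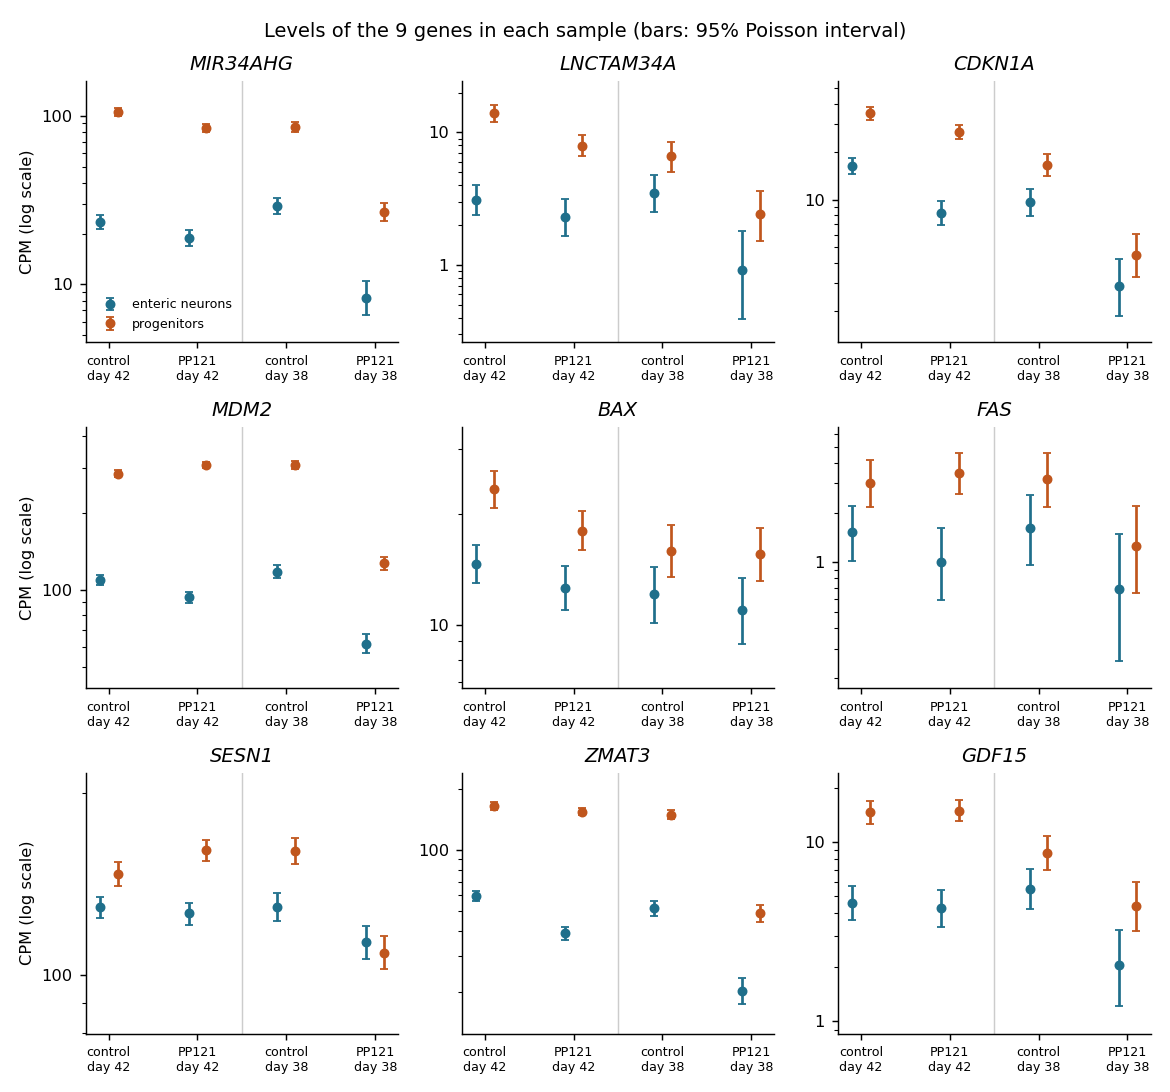
CPM of each gene (log axis) in enteric neurons and progenitors of the 4 samples, grouped by day. Points are sample values and bars are 95% Poisson intervals of the count, which cover counting error only. The PP121 sample of day 38 is the lowest sample in neurons for all 9 genes and in progenitors for all 9 genes.

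Without the day in the model, none of the 9 genes passed in neurons, and none of the 21243 genes did (edgeR quasi-likelihood test on 2 against 2 samples, Benjamini-Hochberg adjusted p of 0.05; 0% called lower). At an unadjusted p under 0.05 there were 2549 genes, 4 of the 9 among them, and DESeq2 called 87 genes, with none of the 9. MIR34AHG differed by -0.88 ± 0.34 (log2 fold difference ± SE, adjusted p = 0.4 by edgeR), CDKN1A by -1.14 ± 0.45 and ZMAT3 by -0.86 ± 0.26. None of them passed the adjustment over all genes tested.

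Since the replicate number marks the day, the fit with the day as a block compares samples within days. With it, 3152 genes passed, 1458 of them lower in PP121 (6.86% of those tested), and 4 of the 9 genes passed, all of them lower. In the edgeR fit, CDKN1A fell by 1.20 ± 0.21 on the log2 scale (adjusted p = 0.000211), ZMAT3 by 0.90 ± 0.14 (adjusted p = 4.03e-05), MIR34AHG by 0.88 ± 0.20 (adjusted p = 0.00338) and MDM2 by 0.52 ± 0.12 (adjusted p = 0.00344). The block leaves 1 residual degree of freedom. LNCTAM34A, at -0.91 ± 0.36, had an adjusted p of 0.0886 by edgeR, and BAX and SESN1, at -0.14 and -0.07, had adjusted p-values of 0.639 and 0.678.

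The calls in neurons changed with the boundary of the class, and the size of the differences changed with the sample left out. In nuclei that were neurons under both annotations, CDKN1A was at 14.4, 8.10, 8.33 and 3.01 CPM in control 1, control 2, PP121 1 and PP121 2, and its groups overlapped. In those nuclei ZMAT3 was at 52.2, 44.1, 37.6 and 19.0 CPM, and MIR34AHG at 19.5, 25.2, 18.4 and 8.06 CPM, with no overlap between groups for either. The share of all genes without overlap was not taken in those nuclei. With the block, 1.73% of all genes were then lower, and 2 of the 9 genes passed: ZMAT3 fell by 0.75 (adjusted p = 0.0146) and CDKN1A by 0.96 (adjusted p = 0.0227), whereas MIR34AHG at -0.68 and MDM2 at -0.35 had edgeR adjusted p-values of 0.161 and 0.127. Control nuclei annotated as neurons but nearest to PP121 progenitors held more of these transcripts, with MDM2 at 172 and 214 CPM and ZMAT3 at 109.6 and 89.5 CPM in control replicates 1 and 2. Of the 393 MDM2 UMIs of these nuclei in control replicate 2, 84 came from 1 nucleus. Without the day in the model, leaving out 1 sample at a time moved the log2 differences. They ran from -1.58 to -0.46 for MIR34AHG, -2.125 to -0.65 for CDKN1A, -1.39 to -0.51 for ZMAT3 and -0.82 to -0.27 for MDM2.

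**Figure D3:**
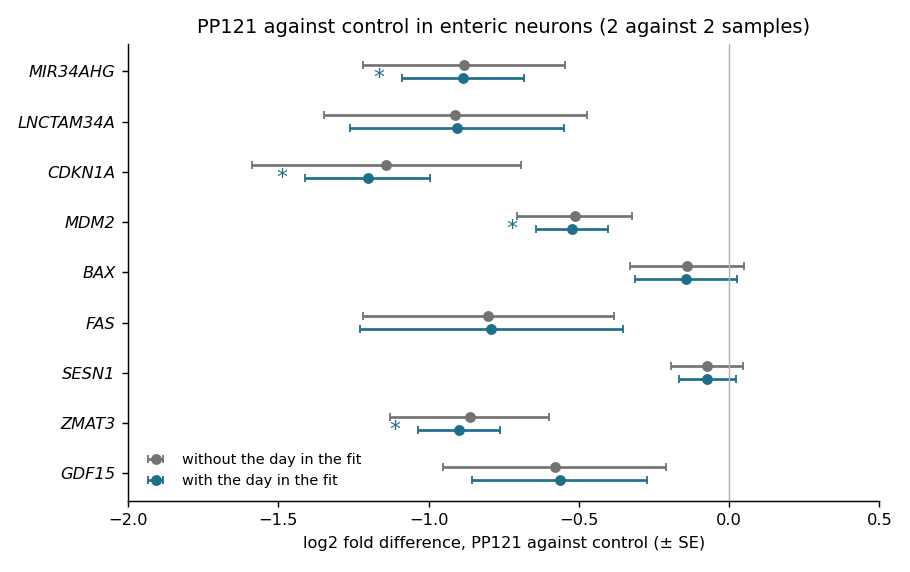
Log2 fold difference between PP121 and control in enteric neurons for each gene, with bars of 1 SE, from the edgeR fit without (grey) and with (blue) the day. An asterisk marks an adjusted p under 0.05, which CDKN1A, ZMAT3, MIR34AHG and MDM2 have in the fit with the day.

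In progenitors, the contrast that chose the genes, the difference was large on day 38 and small on day 42. The 9 genes had a median log2 ratio of -0.09 on day 42 and -1.34 on day 38, where all genes tested had medians of 0.00 and 0.01. All 9 were lower on day 38 and 5 on day 42, where 49.3% and 50.5% of all genes were, and the same 5 were lower on both days (26.3% of all genes). ZMAT3 was at 165.5 CPM in control 1, 149.7 in control 2, 155 in PP121 1 and 48.7 in PP121 2. MDM2 was at 284 and 306 CPM in the controls and at 307 and 127 CPM in the PP121 samples. CDKN1A was at 34.9, 16.5, 26.6 and 4.52 CPM. For each of these 3 genes the PP121 sample of day 42 lay between the controls or within 1 CPM of them, and the PP121 sample of day 38 lay below both.

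Only MIR34AHG had both PP121 samples below both controls in progenitors, by -0.33 on day 42 and -1.68 on day 38, against 12.9% of all genes. In nuclei that were progenitors under both annotations, MIR34AHG, ZMAT3 and FAS did, with MIR34AHG at 111.5 and 87.3 CPM in the controls and at 86.6 and 25.0 CPM in PP121. FAS there rested on 37, 30, 35 and 8 UMIs in control 1, control 2, PP121 1 and PP121 2. The share of all genes without overlap was not taken in these nuclei. LNCTAM34A, the other gene of the rule, was at 14.03, 6.60, 7.96 and 2.42 CPM over all progenitors, and its groups overlapped. The fitted log2 differences were -0.80 for MIR34AHG and -0.98 for LNCTAM34A, the lowest 2 of the 9, followed by CDKN1A at -0.72, and SESN1 at -0.21 was the nearest to 0. The median of the 9 was -0.48, and it was -0.01 without PP121 replicate 2 and -1.35 without PP121 replicate 1. It was -0.58 with the day as a block, and -0.70 without and -0.76 with the block in nuclei that were progenitors under both annotations. With the day as a block, 0.558% of all genes tested were called lower.

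**Figure D4:**
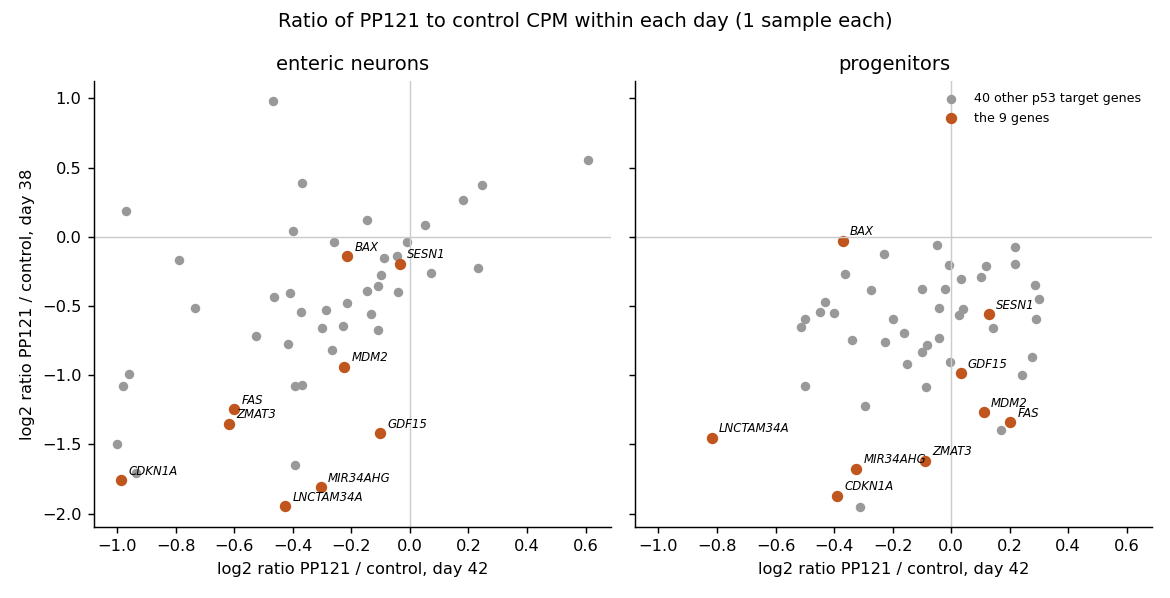
Log2 ratio of PP121 to control CPM on day 42 (horizontal) and day 38 (vertical) for the 9 genes and 40 further p53 target genes, in neurons (left) and progenitors (right). Each ratio rests on 1 sample per group. In progenitors all 40 grey points lie below 0 on the vertical axis, with 26 of them below 0 on the horizontal axis.

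Other genes of the pathway moved in part with the 9. Of 40 further p53 target genes, 23 had both PP121 samples below both controls in neurons and 29 were lower on both days, with median log2 ratios of -0.28 on day 42 and -0.40 on day 38 against -0.04 and -0.04 over all genes. With the day as a block, 13 of the 40 passed as lower and none as higher. BBC3, which encodes the apoptosis activator PUMA, fell by 0.98 (edgeR adjusted p = 5.62e-05), from 25.8 and 21.2 CPM in the controls to 13.1 and 10.1 CPM. RPS27L, a ribosomal protein paralogue, fell by 0.66 (adjusted p = 0.000519), and its reads may be shared with RPS27 copies. PHLDA3, an inhibitor of AKT signalling, fell by 1.14 (adjusted p = 0.0035), and RRM2B, the p53-induced ribonucleotide reductase subunit, fell by 0.60 (adjusted p = 0.00446). None of the 40 passed without the block. In nuclei that were neurons under both annotations, 1 of the 40 passed with the block, BBC3 at -0.66 (edgeR adjusted p = 0.0278), and their median was -0.19. In progenitors all 40 were lower in PP121 on day 38 and 26 on day 42, with medians of -0.58 and -0.07.

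Among the regulators of p53, MDM4, a relative of MDM2 that inhibits it, was at -0.08 in neurons with the block (edgeR adjusted p = 0.638). Of 15 tested genes of the p53 network, 1 passed: TP63, a p53 family member, was higher by 1.39 (adjusted p = 0.0213). Of 21 tested genes reported as miR-34a targets, 2 passed, both higher in PP121: FOXP1, a transcription factor, by 0.91 (adjusted p = 3.4e-07), and SYT1, the synaptic calcium sensor and also a neuronal marker, by 0.29 (adjusted p = 0.0398). Their median was 0.06. Over all genes tested, 7.97% were higher in PP121 with the block, and the shares of both lists were near it. Of 8 genes of the integrated stress response, the programme of the transcription factor ATF4, 4 passed as lower, led by CHAC1 at -1.82, with DDIT3 at -0.62, SLC7A11 at -0.90 and PPP1R15A at -0.37. In nuclei that were neurons under both annotations, FOXP1 at 0.86 and CHAC1 at -2.13 were the genes of these 3 lists that passed, with edgeR adjusted p-values of 0.000295 and 0.0175.

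Across the cell cycle, 6 of the 9 genes rose from G1 to G2M in progenitors. Of these, 5 passed within progenitor 1 alone, where 1110 of 13201 genes passed. None did within progenitor 2 alone, where 1560 of 16356 genes passed. The phase is the deposited call for each nucleus, made from a published list of phase genes that holds none of the 9. Phases were compared within samples (sample as a block). Among 17636 genes, 14.3% were higher in G2M, and 6 of the 9 passed, all higher. MDM2 was at 235, 252, 219 and 109.6 CPM in G1 in control 1, control 2, PP121 1 and PP121 2 and at 359.5, 388, 358 and 141 CPM in G2M. It rose by 0.60 ± 0.07 (log2, adjusted p = 1.8e-06 by edgeR), in 4 of 4 samples. CDKN1A rose by 0.94 ± 0.17 (adjusted p = 0.000314), from 27.3, 14.6, 15.3 and 1.98 CPM to 40.4, 24.7, 37.0 and 6.77 CPM. ZMAT3 rose by 0.58 ± 0.08 (adjusted p = 1.5e-05), MIR34AHG by 0.51 ± 0.10 (adjusted p = 0.000398), SESN1 by 0.36 ± 0.07 (adjusted p = 0.000532) and GDF15 by 0.58 ± 0.21 (adjusted p = 0.0373). The ratio of G2M to G1 was above 1 in each sample for all 6, and leaving out any 1 sample ended the call for GDF15 alone. LNCTAM34A, at -0.01, BAX, at 0.08, and FAS, at 0.56, did not pass.

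S phase differed less from G1. There, 4.16% of all genes were higher and 3 of the 9 passed, namely MDM2 at 0.41 ± 0.07 (edgeR adjusted p = 0.000551), CDKN1A at 0.61 ± 0.17 (adjusted p = 0.0223) and ZMAT3 at 0.29 ± 0.08 (adjusted p = 0.0282). Without PP121 replicate 1, MDM2 was the only one of the 3 to pass. MIR34AHG, at 0.24, had an adjusted p of 0.122.

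The make-up of the phases differed by class. Progenitor 1 was 21.6% to 36.2% of progenitors in G1, 36.2% to 60.4% in S and 47.6% to 61.1% in G2M, and this class had the higher levels of 7 of the 9 genes. Within progenitor 1 alone, 563 of 13201 genes tested were higher in G2M than in G1, 5 of the 8 members tested among them. These were CDKN1A by 0.90, MIR34AHG by 0.59, ZMAT3 by 0.53, MDM2 by 0.44 and SESN1 by 0.38, each in 4 of 4 samples. In the sample PP121 2, CDKN1A in G1 of progenitor 1 rested on 1 UMI. Within progenitor 2 alone, none of the 8 genes tested passed in either phase by edgeR, with 1560 genes passing in G2M and 689 in S. There MIR34AHG was at -0.11 ± 0.15, ZMAT3 at -0.07, SESN1 at -0.02, MDM2 at 0.09 and CDKN1A at 0.40 ± 0.29. The difference between the classes was not tested. By the call, 27.6% to 39.1% of progenitor 1 nuclei were in G2M, against 14.1% to 25.3% of progenitor 2 nuclei. The summed level of 8 cycling markers was 111 to 278 CPM in progenitor 1 and 372 to 570 CPM in progenitor 2. The call and the markers thus ordered the classes differently, and how well the call holds within each class was not tested.

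**Figure D5:**
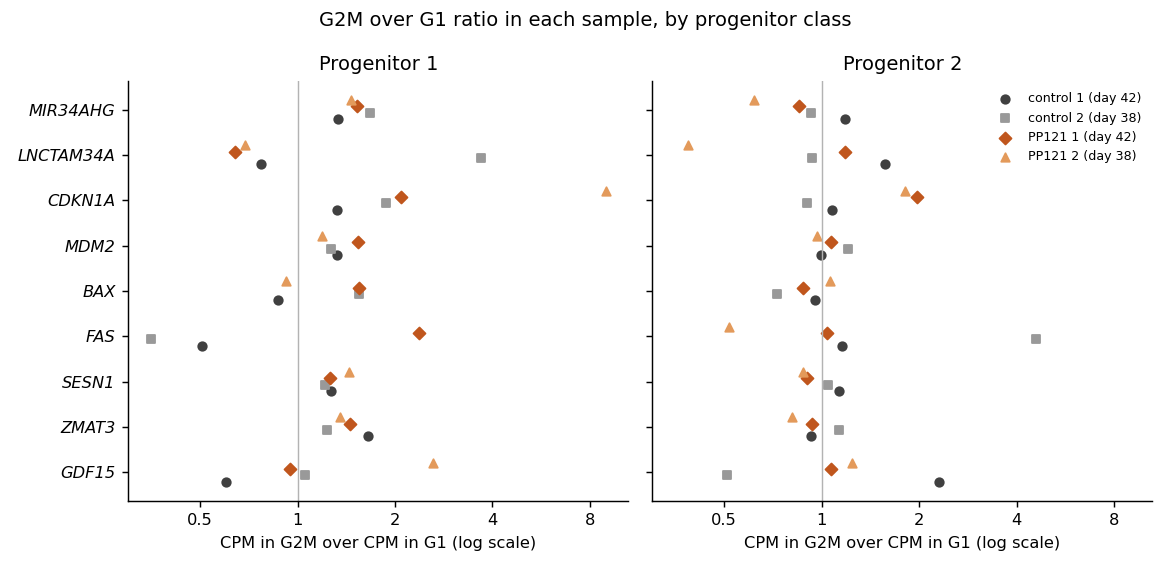
Ratio of CPM in G2M to CPM in G1 for each gene (log axis) in progenitor 1 (left) and progenitor 2 (right), 1 point per sample. In progenitor 1 the 4 points of MIR34AHG, CDKN1A, MDM2, SESN1 and ZMAT3 lie above 1, and in progenitor 2 the points of MDM2 spread from 0.966 to 1.21.

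Of the 40 further p53 targets, 20 were higher and 1 (ASCC3) was lower in G2M, with a median of 0.39 against -0.01 over all genes. IKBIP rose by 0.81, POLH, a polymerase that copies past damaged bases, by 0.64, PPM1D, a phosphatase that switches p53 signalling off, by 0.62, and APAF1, the apoptosome scaffold, by 0.49. In S phase 4 of the 40 were higher: PPM1D by 0.35, POLH by 0.37, the antiproliferative gene BTG2 by 0.36 and IKBIP by 0.32. Of the p53 network, 6 of 14 genes were higher in G2M, with the checkpoint kinase genes CHEK2 and CHEK1 at 2.13 and 1.14 and the deubiquitinase gene USP7 at 0.30. Of 21 reported miR-34a targets, 5 were higher and 5 lower, CDK6 and MET among the lower ones at -0.61 and -1.09 and the deacetylase gene SIRT1 among the higher ones at 0.35. Of 8 genes of the integrated stress response, 3 were higher, namely ATF4 by 0.62, ATF3 by 0.62 and PPP1R15A by 0.54. The 8 cycling markers were all higher, as part of them define the phase. Their summed level in progenitors was 305, 272, 317 and 477 CPM in control 1, control 2, PP121 1 and PP121 2, so the sample with the lowest p53 target levels had the highest level of cycling markers. The part of these markers in the difference between samples was not tested.

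Between days, none of the 9 genes passed in neurons or in progenitors, and no gene did by edgeR (0% called in both), with 1574 and 2248 genes at an unadjusted p under 0.05. DESeq2 called 59 and 109 genes. Each day held 1 control and 1 PP121 sample, so the spread within a day includes any difference between treatments. For the sample PP121 2 of day 38, treatment, day and the sample itself cannot be told apart. The genes were chosen on these same progenitor values, and PP121 2 enters both that choice and the day comparison. The p-values between days in progenitors are therefore not independent of the choice. With treatment as a covariate, 3.68% of genes in neurons and 1.41% in progenitors were lower on day 38. In progenitors 5 of the 9 then fell: CDKN1A by 1.61 ± 0.25 (edgeR adjusted p = 5.16e-05), LNCTAM34A by 1.24 (adjusted p = 0.00764), GDF15 by 1.11 (adjusted p = 0.0107), MIR34AHG by 0.84 (adjusted p = 0.0218) and ZMAT3 by 0.78 (adjusted p = 0.0408). In neurons CDKN1A fell by 0.97 ± 0.21 (adjusted p = 0.00258) and ZMAT3 by 0.47 (adjusted p = 0.0261). CDKN1A was lower on day 38 within each treatment, in both neurons and progenitors, whereas MIR34AHG in neurons was higher on day 38 among controls (29.2 against 23.3 CPM). Without PP121 replicate 2 and without the covariate, the sign of ZMAT3 and MDM2 turned in both classes. Genes of the stress response went with the day in progenitors: SLC7A11 fell by 1.91, DDIT3 by 1.48, ASNS by 1.27 and TRIB3 by 1.16. Of the 40 further p53 targets, 4 fell, namely TRIM22 by 1.23, PLK2 by 0.79, GADD45A by 0.78 and CPEB4 by 0.70. The summed level of 8 mesenchymal markers in progenitors was 26.8 and 27.7 CPM on day 42 and 72.3 and 77.0 CPM on day 38, and in neurons it was 14.4 and 10.6 CPM on day 42 and 46.8 and 51.6 CPM on day 38. Its part in these differences was not tested. In nuclei that kept their class under both annotations, with treatment as a covariate, 2.27% of genes in neurons and 2.25% in progenitors were lower on day 38. There CDKN1A alone of the 9 fell in neurons, by 1.02 (edgeR adjusted p = 0.0157), and ZMAT3 at -0.52 had an adjusted p of 0.0638. In progenitors 6 of the 9 fell, the 5 above and MDM2 by 0.52 (adjusted p = 0.0234), as did 9 of the 40 further p53 targets, against 0 of the 40 in neurons.

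Nuclei with a CDKN1A UMI held more UMIs of the other 8 genes than nuclei without one in each sample. After thinning each nucleus to 2000 UMIs, neurons with a CDKN1A UMI held 6.19, 7.39, 6.72 and 8.0 UMIs of the other 8 genes per 10000 UMIs in control 1, control 2, PP121 1 and PP121 2, and neurons without one held 3.32, 3.14, 2.81 and 2.22. The ratio was 1.86 to 3.61 in neurons and 1.80 to 2.39 in progenitors, above 1 in each sample of both. Nuclei with a CDKN1A UMI were few, at 59, 23, 32 and 5 neurons and 103, 39, 130 and 8 progenitors. Without nuclei of high UMI counts that may be doublets, the ratio was 1.04 to 4.53 in nuclei that were neurons under both annotations, 1.02 to 1.98 in progenitor 1 and 1.79 to 7.40 in progenitor 2. In the first of these sets it was 1.04 in control 2, from 12 nuclei with a CDKN1A UMI, and in progenitor 1 it was 1.02 in PP121 2, from 4 such nuclei. The values are a description, since nuclei of a sample are not replicates and classes can be mixed.

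The genes whose levels were most like those of MIR34AHG were found by the Pearson correlation of log2(CPM + 1) over 12 sums of sample by class (neurons, progenitor 1 and progenitor 2), among 11353 genes with a mean of at least 10 CPM. They were ZMAT3 (0.984), EDA2R, a death-domain receptor gene (0.98), AEN, an apoptosis nuclease gene (0.975), NFE2L2, an oxidative stress factor (0.973), and PVT1, a long non-coding RNA (0.973). The first 3 are p53 targets, and MDM2 ranked 16 at 0.954. Other members ranked lower, with CDKN1A at 289 (0.884), BAX at 1202 (0.791) and SESN1 at 1646 (0.756). For CDKN1A they were GUCA1B (0.981), GOSR2 (0.979), GOLGA5 (0.969), PLA2G12A (0.969) and AC009404.1 (0.963), with ZMAT3 at rank 95. MIR34AHG was at rank 230, MDM2 at 459, BAX at 997 and SESN1 at 1125. The 12 sums share samples and libraries, so they are not independent, and these values carry no test.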

How the data were processed

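Nuclei of 2 control and 2 PP121 samples were profiled with a droplet 3′ kit. The authors deposited whole UMI counts per gene and nucleus. Their notes name Cell Ranger, Seurat 4.0.4 and GRCh38, and their methods name kallisto and bustools. The share of ribosomal UMIs of a nucleus is a percent that the authors deposited, and the mitochondrial one likewise. Whether intronic reads were counted is not given in the sources used here. Nuclei without a class were dropped. A deposited sample column differs from the labels for control, and labels were used.

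Counts were summed per sample and class, or phase, and scaled to CPM. edgeR 4.0.16 (R 4.3.3; quasi-likelihood test, two-sided, TMM, filter on low counts, Benjamini-Hochberg over all genes, threshold 0.05) was the main test, and DESeq2 1.42.0 an alternative. The fits were tested on simulated data with known changes. With 2 against 2 samples an exact permutation p cannot go below 0.333. P-values measure the spread between these samples. edgeR also borrows variance estimates across genes, so with few samples its p-values do not rest on each gene's own spread alone. The deposited day gives the pairing by replicate number, and deviations of same-numbered samples correlated at 0.476 in neurons and 0.323 in progenitors. Nearest-neighbour classes used 15 nuclei. No doublet caller was run. Annotated nuclei above the 95th percentile of UMIs of their sample were taken as doublet candidates, kept in the main fits and left out as an alternative. The members and lists were chosen with earlier results of these data known. Named genes were the 9 members, MDM4, up to 4 genes per list with an adjusted p under 0.05 by smallest p, and the 5 genes most like MIR34AHG and CDKN1A. Some genes that the rule covers are left out here. ASCC3 was named after its value was seen.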

Additional observations from a re-analysis of the deposited data

Results flagged for a closer look

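In progenitors, 4 genes had opposite within-day ratios of PP121 to control, with 1 pair of samples per day, and the difference between days was not tested. The ratio on day 42 and on day 38 was 1.08 and 0.415 for MDM2, 1.15 and 0.394 for FAS, 1.09 and 0.678 for SESN1, and 1.02 and 0.505 for GDF15. In nuclei that were progenitors under both annotations, the ratio on day 42 was 1.02, 0.907, 1.03 and 0.915 for these genes.

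In 2 cases, 1 sample stood apart from the other 3 in the ratio of phases within progenitors, a gap that chance gives in about 1 in 20 sets of samples, and 18 sets were examined. The S to G1 ratio of MIR34AHG was 1.38 in PP121 replicate 1, with the others at 1.12 to 1.16. The G2M to G1 ratio of ZMAT3 was 1.27 in PP121 replicate 2, with the others at 1.504 to 1.54.

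Control nuclei that met the stated limits but carried no class, 372 in replicate 1 and 196 in replicate 2, held more of 8 of the 9 transcripts than the annotated control nuclei (all but LNCTAM34A). Of these nuclei, 343 and 181 were nearest to progenitor 1, which exceeded progenitor 2 for 7 of the 9 genes in each sample. Their median UMI counts were 5448 and 6524, and their median share of ribosomal counts was 4.45% and 4.47%, against 0.931% and 0.853% in annotated nuclei. In replicates 1 and 2, MDM2 was at 608 and 532 CPM, ZMAT3 at 392 and 300.2 CPM, and SESN1 at 222 and 327 CPM. MIR34AHG was at 168 and 146 CPM and CDKN1A at 102 and 46.3 CPM. In annotated progenitor 1 of the same samples MDM2 was at 488 and 482 CPM, ZMAT3 at 249 and 239 CPM, MIR34AHG at 155 and 127 CPM and CDKN1A at 54.3 and 26.1 CPM. BAX was at 38.9 and 33.1 CPM, FAS at 9.20 and 3.31 CPM and GDF15 at 59.8 and 26.4 CPM. No such nuclei were left out of the PP121 samples. With them put back, the median of the 9 genes in progenitors was -0.78 (log2) in place of -0.48.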

How the results depend on the processing

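The 9 genes were lower in PP121 neurons under each alternative that tested them, and their calls there depended on the day, the class boundary and 1 sample. In neurons, 87 genes passed with DESeq2 and 69 without a filter, with none of the 9 in either. With the replicate block 3152 passed (4 of the 9). With settings chosen after seeing the data and the block, 1045 passed for neurons under both annotations (2 of the 9), 761 for classes from joint clusters (1, CDKN1A) and 2822 with left-out nuclei put back (4). Leaving out 1 sample gave 0 to 1402 genes and 0 to 4 of the 9; with the block no degree of freedom was left for this. In progenitor 1 alone, S phase gave 71 genes and 1 of the 9, and G2M 1110 genes. In progenitor 2 alone, 689 and 1560 passed, and 0 of the 9. Without the sample block 190 passed in S and 899 in G2M, with 0 of the 9. Leaving out 1 sample gave 741 to 1466 genes and 1 to 3 of the 9 in S. Between days, DESeq2 called 59 genes in neurons and 109 in progenitors, no filter 158 and 40, and treatment as a covariate, which equals the replicate block, 2015 (2 of the 9) and 606 (5). With the covariate and the class held under both annotations, chosen after seeing the data, it was 1339 (1) and 1009 (6). Leaving out 1 sample gave 2 to 271 genes in neurons, and 2 to 1031 genes and 0 to 6 of the 9 in progenitors.

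Log2 differences changed sign in S against G1 for LNCTAM34A (0.11) and BAX (0.17) in progenitor 1, and for MIR34AHG (-0.18), MDM2 (-0.10), SESN1 (-0.11), ZMAT3 (-0.0575) and GDF15 (-0.31) in progenitor 2. In G2M against G1 they did for GDF15 in progenitor 1 (-0.00088), for MIR34AHG (-0.11), LNCTAM34A (0.21), BAX (-0.10), SESN1 (-0.0183) and ZMAT3 (-0.0678) in progenitor 2, and for LNCTAM34A without doublet candidates (0.0385). For SESN1 between days they did with equal numbers of nuclei in neurons (0.0183) and in progenitor 1 (0.0681). Leaving out 1 sample gave ranges across 0: BAX -0.29 to 0.12 and LNCTAM34A -0.22 to 0.15 in S, and LNCTAM34A -0.20 to 0.10 in G2M. Between days in neurons they were MIR34AHG -1.25 to 0.51, LNCTAM34A -1.48 to 0.41, FAS -0.80 to 0.39, MDM2 -0.63 to 0.26, SESN1 -0.0874 to 0.0627, ZMAT3 -1.19 to 0.12 and GDF15 -1.02 to 0.35. In progenitors they were MDM2 -1.11 to 0.18, FAS -1.26 to 0.10, SESN1 -0.39 to 0.19 and ZMAT3 -1.61 to 0.0287. Fewer samples and nuclei enter the fits by class and without a sample, and other causes of these changes were not tested. FAS and LNCTAM34A rest on 70 and 145 UMIs in neurons, which limits what can be read of them.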
